A study of Mus musculus with 8 samples.

Results

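HpaII sites that gave no HpaII tag in any of 8 mouse livers are described here. A site was counted when it lay on an autosome, was listed in the files of all 8 livers, had an m-score of 0 in each of them and had 20 or more tags in the MspI reference. Of 589836 autosomal sites listed in every liver with 20 or more MspI tags (eligible sites), 29233 met the rule, which is 4.96%. They are called zero-tag sites below, and the other 560603 eligible sites are the comparison sites. The m-score runs from 0, where a site has no HpaII tag, to 100, where it has no MspI tag, and it is the angle between HpaII tags and MspI tags scaled to each library. The m-scores of the zero-tag sites were used to choose them, so their being at 0 is a description and not a finding.

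HpaII and MspI both recognise CCGG. HpaII does not cut when the inner cytosine, which is part of a CpG, is methylated, and MspI cuts whether or not that cytosine is methylated. A CCGG with many MspI tags was therefore cut and sequenced in the MspI reference, and with no HpaII tag its m-score is at the methylated end of the scale. The origin of that reference is not given, and whether each CCGG is intact in these livers was not tested. In most adult mammalian tissues CpGs outside CpG islands are largely methylated, CpG-dense islands at gene starts are largely unmethylated, and methylation of neighbouring CpGs tends to be shared over short distances.

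The livers came from C57BL/6J mice, an inbred strain, and all 8 had received a high-fat diet. The groups were the high-fat diet with lingonberries (lingonberry, n = 4) and the high-fat diet alone (HFD, n = 4). The sources used here do not give age, sex, duration of feeding or any batch. No expression was measured, so the tissue label was not checked against marker genes. The labels do not state that the samples are separate animals, while the design text gives 4 per group, so the p-values given reflect only how these samples vary. The libraries held from 5877080 to 16076961 HpaII tags, and the 3 deepest were lingonberry libraries. A single MspI reference had been scaled to every library. No sequence around the sites and no gene annotation is given, because no genome of the files' build, mm9, was used here. Positions are in that build.

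The zero-tag sites were the end of a continuous series rather than a separate class. Of the eligible sites, 286603 (48.6%) had HpaII tags in all 8 livers. The number at 0 in exactly 4 livers was 35419, in exactly 6 it was 33956, in exactly 7 it was 33407 and in all 8 it was 29233. Counts thus fell slowly toward the zero-tag sites, with no rise at 8. Just outside the limit of 0 tags, 26357 eligible sites had a total that rounded to 1 tag over all livers, and 23341 had 2. Just inside and outside the limit on MspI tags, 2251 of 28417 sites with 20 MspI tags were at 0 in every liver (7.92%), against 2296 of 29338 with 19 (7.83%).

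**Figure D1:**
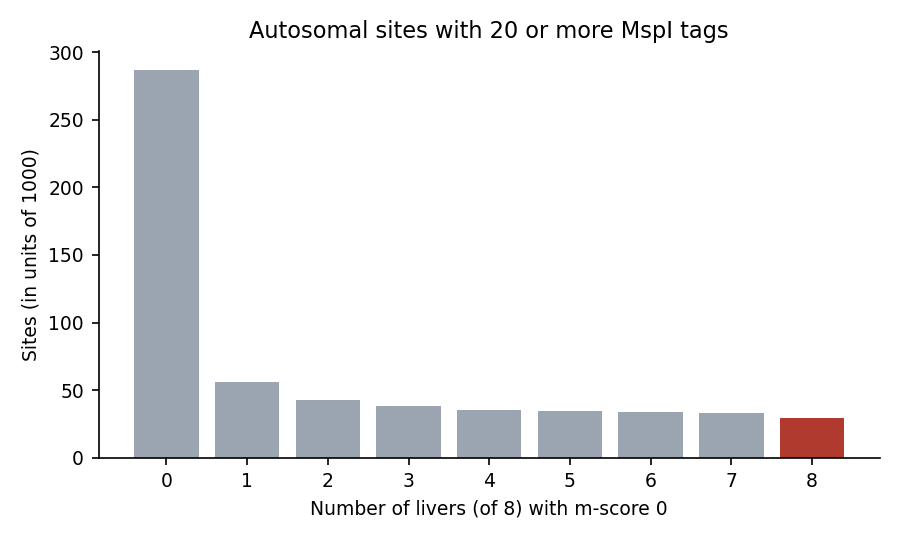
Number of eligible autosomal sites (y axis, in units of 1000) by the number of livers with an m-score of 0 (x axis), with the 29233 zero-tag sites as the last bar. The bars for 4 to 8 livers decline gently, from 35419 to 29233 sites.

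What a 0 means depends on the tags behind it. A count of 0 allows up to 3 tags, a limit that covers counting error only. For a site with 20 MspI tags in the shallowest library, 3 tags would give an m-score of 41.4, so 1 library alone hardly limits methylation at such a site. Over the 8 libraries together the same site had 46.5 scaled MspI tags, and 3 tags would give an m-score of 4.10. The median zero-tag site had 28 MspI tags, which over all libraries allows an m-score of up to 2.93. The comparison sites had a median of 26 HpaII tags over all livers and a median pooled m-score of 21.2, with quartiles of 6.61 and 62.8.

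Zero-tag sites had fewer MspI tags than the comparison sites, with a median of 28 (quartiles 23 and 36) against 32 (25 and 44). Their share fell from 6.58% of sites with 20 to under 30 MspI tags to 4.78% at 30 to under 40, 3.53% at 40 to under 50, 2.48% at 50 to under 100 and 1.07% at 100 or more (50 of 4663). The fall was present within each class of local density. At isolated sites it ran from 6.83% at 20 to under 30 tags to 2.44% at 50 to under 100, and at sites with 5 or more neighbours within 500 bp from 1.30% to 0.565%. MspI tags were part of the rule, and more MspI tags also come with more chances to draw an HpaII tag, whose part in the fall was not tested. Whole numbers of MspI tags were found at 94.1% of zero-tag sites and 96.3% of comparison sites. Numbers that are not whole were read as tags shared with another place in the genome, which the sources used here do not state. In all, 1713 zero-tag sites had such shared tags, and on that reading the position of a tag is uncertain for them.

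Zero-tag sites were rarer where listed CCGG sites were locally dense, a measure that the rule did not use. Isolated sites, with no other listed site within 500 bp, held 10646 of them, 5.44% of 195526 eligible sites (exact Clopper-Pearson 95% interval 5.34% to 5.55%). Sites with 1 to 4 neighbours held 17666, or 5.996% of 294638 (5.91% to 6.08%). Clustered sites, with 5 or more neighbours, held only 921, or 0.924% of 99672 (0.866% to 0.985%). Their share was 4.52 percentage points below that of isolated sites. These intervals treat sites as independent, which neighbouring sites are not, and they cover counting error only. The mean m-score of the comparison sites rose in the same order, from 19.6 at isolated sites to 27.7 and 69.7.

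The relation was not a simple decline. The share was 5.44% with 0 neighbours, 6.37% with 1, 5.62% with 2 to 4, 1.33% with 5 to 9 and 0.168% with 10 to 19 (59 of 35190). It then stood at 2.70% with 20 or more, from 13 of 482 sites, all of them in the closely spaced arrays described below. By distance to the nearest listed site the share was 3.30% within 25 bp, 4.53% at 51 to 100 bp, 5.35% at 201 to 500 bp and 5.57% at 2001 to 5000 bp, and 4.45% beyond 5000 bp. An adjacent CCGG that was not listed in every file, seen as a gap in the running site number, stood next to 12.4% of zero-tag sites (12.05% to 12.8%) and 9.94% of comparison sites (9.86% to 10.02%).

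**Figure D2:**
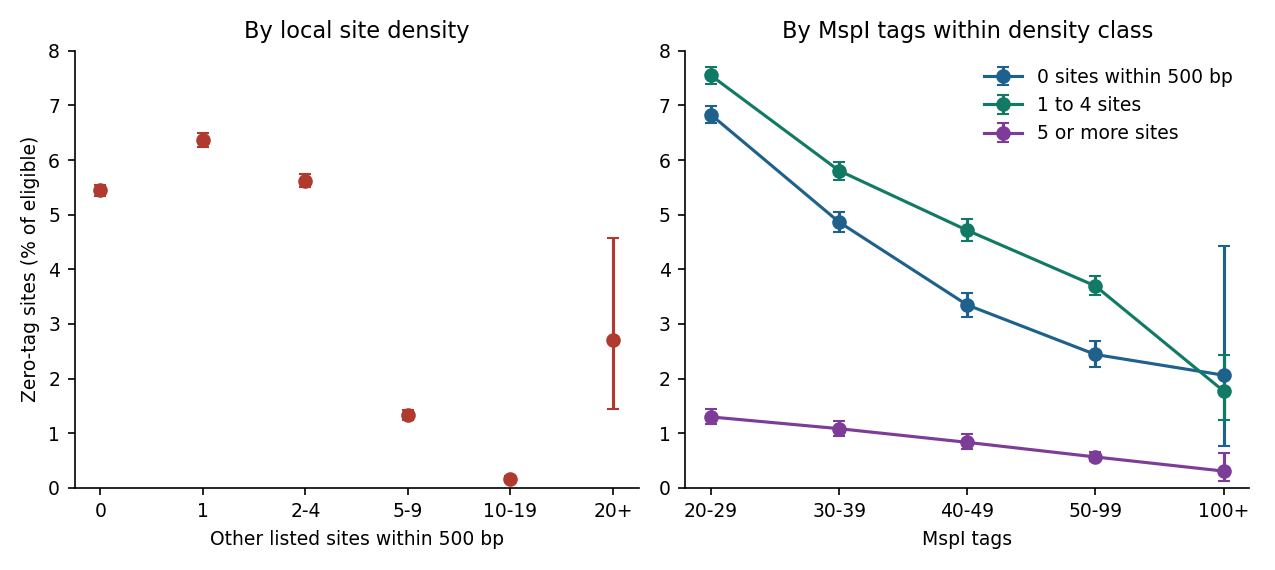
Share of eligible sites that were zero-tag sites (y axis, %) by how many further sites were listed within 500 bp (left) and by MspI tags within 3 density classes (right), with exact 95% binomial intervals. The share is 5.44% to 6.37% with 0 to 4 neighbours, drops to 0.168% at 10 to 19 and falls with MspI tags in every class.

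A zero-tag site was followed by another zero-tag site more often than a comparison site was. Where 2 consecutive listed sites were both eligible and at most 100 bp apart, the second was a zero-tag site in 31.9% of pairs whose first was one (1055 of 3303) and in 2.19% of pairs whose first was a comparison site (2082 of 95092). At 101 to 500 bp the shares were 20.2% and 3.14%, at 501 to 1000 bp 12.8% and 4.53%, and at 1001 to 2000 bp 9.08% and 5.22%. Beyond 5000 bp they were still 10.1% (8.31% to 12.1%) and 5.11% (4.79% to 5.44%). Both sites of a pair were chosen by the same values, so these shares describe how the zero-tag sites are arranged and carry no test.

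**Figure D3:**
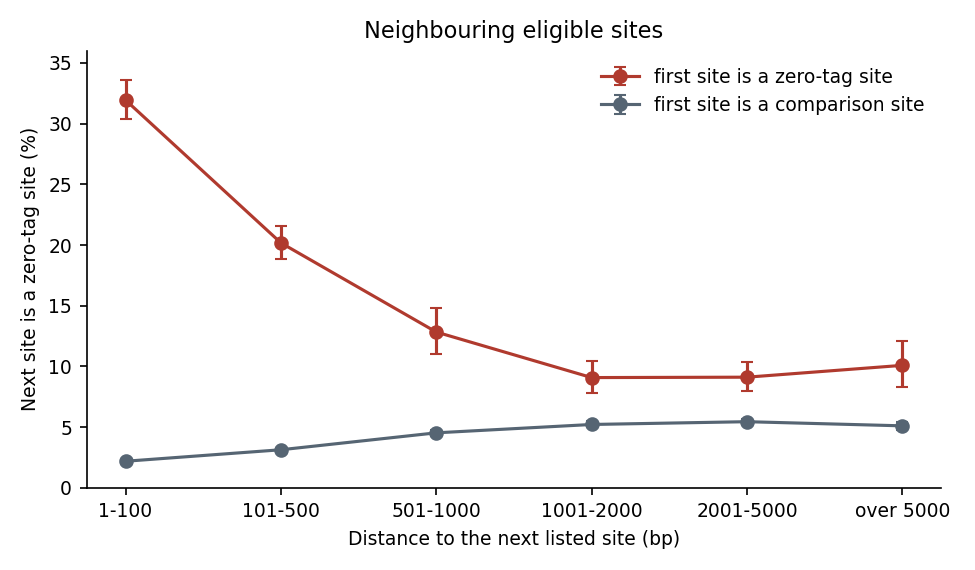
Share of next listed sites that were zero-tag sites (y axis, %) against the distance between the 2 eligible sites (x axis, bp), for pairs that start at a zero-tag site or at a comparison site, with exact 95% binomial intervals. The shares are 31.9% and 2.19% within 100 bp and come closer up to 2000 bp, at 9.08% and 5.22%.

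Most zero-tag sites stood alone in the order of listed sites. Of them, 24764 had no zero-tag site directly before or after, 3668 formed 1834 runs of 2, and 561 formed 187 runs of 3. Longer runs were few, with 49 of 4 sites, 5 of 5, 2 of 6 and 1 of 7.

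The longest run, of 7 sites, covered 2138 bp on chromosome 11, written as chr11:113466606-113468743. Its sites had from 22 to 53 MspI tags each, all whole, and no unlisted CCGG lay between them. With 265 MspI tags in all and no HpaII tag in 8 livers, the run as a whole allowed an m-score of up to 0.310. The listed site 48 bp after it, with 30 MspI tags, had a mean m-score of 2.56 in lingonberry and 0 in HFD livers. The listed site 4288 bp before it, with 36 MspI tags, was of intermediate m-score, 44.2 in lingonberry and 49.8 in HFD livers, and ran from 30.2 to 56.4 over the livers. The run therefore had a site of low m-score at its end and lay some kilobases from a site of intermediate m-score.

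A run of 6 sites on chromosome 12, at chr12:92885693-92886104, covered 412 bp with 28 to 49 whole MspI tags per site. The next site, 96 bp on, had 2.92 in lingonberry and 0 in HFD livers. The other run of 6, at chr15:38630950-38631155, was unlike the others in 2 ways. Its sites were spaced 41 bp apart throughout, and each had from 47.8 to 52.8 MspI tags, none of them whole. If such tags are shared between places, as read above, they cannot be given to a single site. The values there then belong to the group of sites together. Whether the group is a tandem repeat was not tested. The 10 listed sites from 38630642 to 38631155 had a mean m-score of 0.877 ± 0.802 in lingonberry and 1.17 ± 1.16 in HFD livers (SD, n = 4).

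Closely spaced arrays of sites held the 13 zero-tag sites with 20 or more neighbours within 500 bp, and they were singled out after these values were seen. On chromosome 12, 135 sites between 5057130 and 5066956 had a median gap of 31 bp, and 109 of them had shared MspI tags. Of these, 56 were eligible and 21 were zero-tag sites, and all 135 had a mean m-score below 25. The mean over the array, its zero-tag sites included, was 0.409 ± 0.0302 in lingonberry and 0.602 ± 0.406 in HFD livers (SD, n = 4). On chromosome 17, 22 sites between 88093596 and 88094265 had a median gap of 29 bp, 19 had shared MspI tags, and all 6 eligible sites were zero-tag sites. The mean there was 1.00451 ± 1.41 in lingonberry livers and 0 in every HFD liver. Both means are lowered by the zero-tag sites, which are at 0 by the rule.

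The surroundings of the zero-tag sites were read from sites with 10 to under 20 MspI tags, which the rule could never choose. There were 7995 such sites within 500 bp of a zero-tag site, and 7456 zero-tag sites had at least 1. Their mean m-score was 8.12, 7.62, 8.10 and 8.46 in the 4 lingonberry livers and 8.52, 9.09, 9.52 and 8.81 in the 4 HFD livers. Beside comparison sites, with no zero-tag site within 500 bp, 106858 such sites had 39.9, 38.5, 38.9 and 41.2 in lingonberry and 39.9, 40.6, 40.5 and 40.2 in HFD livers. The lowest mean beside comparison sites, 38.5, lay far above the highest beside zero-tag sites, 9.52. Sites beside zero-tag sites were lower by a mean of 31.4, as the difference was -31.4 ± 0.608 (SD, n = 8), and lower in 8 of 8 livers (exact sign-flip permutation test, two-sided p = 0.00781, the smallest the design can give). The zero-tag sites were chosen from these same 8 livers, so the p-value shows only that the livers agreed in direction. Of the sites beside zero-tag sites, 90.8% had a mean m-score below 25 and 0.575% had 75 or more, while beside comparison sites these shares were 43.8% and 22.4%. At 29.8% of them (2379) the m-score was 0 in all 8 livers, against 6.33% beside comparison sites.

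The gap was present at each density tested. With exactly 1 listed site within 500 bp the mean was 9.15 ± 0.854 beside zero-tag sites and 25.9 ± 1.33 beside comparison sites (SD, n = 8 livers), with 2 to 4 it was 8.40 ± 0.495 and 33.6 ± 1.11, with 5 to 9 it was 7.20 ± 0.714 and 68.6 ± 1.28, and with 10 or more it was 4.01 ± 0.722 and 76.3 ± 2.13 (62 and 10436 sites). All 4 differences had an exact sign-flip p of 0.00781, adjusted p = 0.00781 over the 4 (Benjamini-Hochberg), and were in the same direction in 8 of 8 livers. These p-values likewise show only agreement among the livers used for the choice. The gap was widest where sites were densest. In stretches dense in listed CCGG sites, the measured neighbours of a zero-tag site were thus at the methylated end of the scale, and those of comparison sites were mostly toward the unmethylated end. The 62 sites of the densest class can include some from the closely spaced arrays described above, where many sites had shared MspI tags. How many did so was not counted.

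The difference was smaller at greater distance. Sites whose nearest eligible site was a zero-tag site at most 50 bp away averaged an m-score of 3.86 ± 0.328, against 57.7 ± 1.23 where it was a comparison site (SD, n = 8). At 101 to 200 bp the values were 5.82 ± 0.491 and 38.1 ± 0.997, at 201 to 500 bp 11.1 ± 0.924 and 29.8 ± 1.46, and at 501 to 1000 bp 15.96 ± 1.43 and 24.3 ± 1.55. At 1001 to 2000 bp they were 17.5 ± 1.31 and 20.6 ± 1.46. The sets thus came closer with distance, as values near comparison sites fell from 57.7 to 20.6 and those near zero-tag sites rose from 3.86 to 17.5. Local density was not held constant over these distances, and its part was not tested. Values near a zero-tag site rose up to 1001 to 2000 bp and were 14.2 ± 1.63 beyond 5000 bp. Those near a comparison site fell throughout, to 15.9 ± 1.65.

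**Figure D4:**
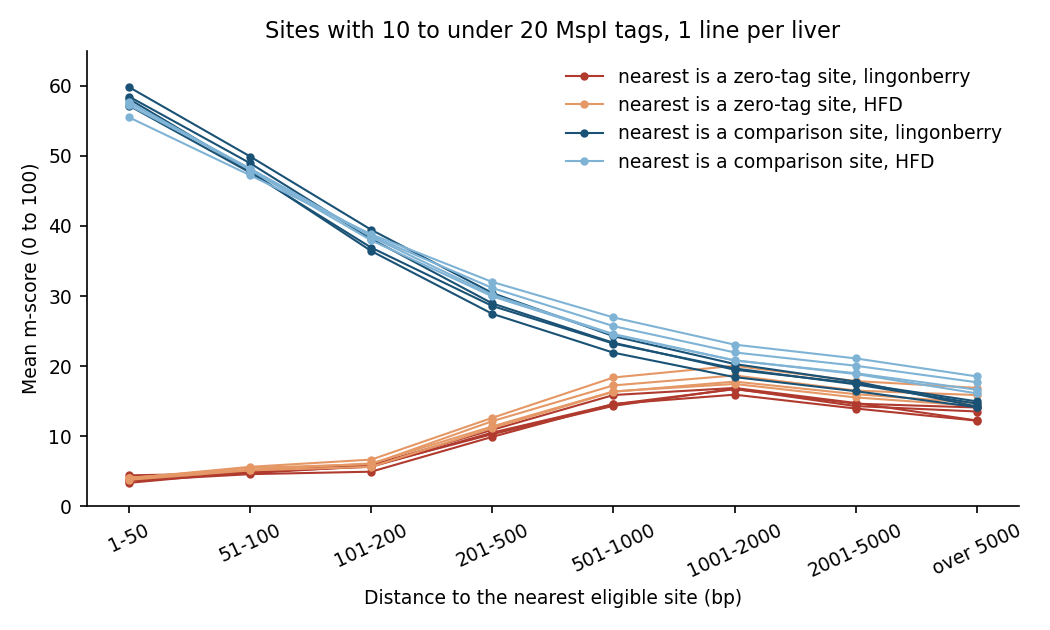
Mean m-score (y axis, 0 to 100) of sites with 10 to under 20 MspI tags against the distance to the nearest eligible site (x axis, bp), with 1 line per liver, split by whether that site is a zero-tag site or a comparison site. Within 50 bp the sets lie at 3.86 and 57.7 on average, and at 1001 to 2000 bp at 17.5 and 20.6.

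The 6 zero-tag sites with most MspI tags, among those with whole tags, had from 132 to 190 and so carry the firmest zeros. The site at chromosome 2, position 77739855, had 190 MspI tags and allowed an m-score of up to 0.432 over the 8 livers. It was isolated, and the nearest listed site, 2243 bp away with 6 MspI tags, was at 0 in every liver too. The site at chromosome 9, position 12135404, with 143 MspI tags, had 8 neighbours within 500 bp. Of these, 2 were zero-tag sites, and the highest mean m-score was 12.2. The site at chromosome 4, position 32649792, with 132 MspI tags, had 6 neighbours with mean m-scores from 0 to 4.50, and that at chromosome 8, position 125955391, with 138 MspI tags, had 3 neighbours from 1.29 to 7.12. The measured neighbours on chromosomes 9, 4 and 8 thus had mean m-scores from 0 to 12.2. The chromosome 4 neighbours 38 and 43 bp away, both at 0, had only 2 MspI tags each. Shared tags were found at the chromosome 8 neighbours 58 and 200 bp away and at some on chromosome 9. The 2 zero-tag neighbours on chromosome 9 are at 0 by the rule, and the neighbour with 12.2 ran from 0 to 33.0 over the livers. The site at chromosome 13, position 106788668, with 157 MspI tags, had a single neighbour, 52 bp away and at 0, which rests on 2.22 MspI tags.

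The sixth, at chromosome 10, position 59510031, with 135 MspI tags, was different. Its neighbour 164 bp after it, with 12 MspI tags, was at 0 in every liver. The neighbour 374 bp before it, with 11 MspI tags, had an m-score of 75.2 ± 11.5 in lingonberry and 75.8 ± 15.1 in HFD livers (SD, n = 4), from 58.8 to 89.1 over the livers. A mostly unmethylated CCGG and a CCGG with 135 MspI tags and no HpaII tag thus lay 374 bp apart in all 8 livers.

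Unmethylated surroundings were rare among the few zero-tag sites that could be read in this way. Only 179 of the 29233 had at least 3 neighbours of 10 to under 20 MspI tags, and no matching count was made for comparison sites. Of these 179, 170 had a mean neighbour m-score below 25 and 20 had neighbours all at 0 in all livers. A mean of 50 or more was found at 2, and 75 or more at 0. The median was 2.68. The highest was at chromosome 8, position 13414454, a site with 26 MspI tags. Its 3 such neighbours had a mean of 65.6 ± 8.83 in lingonberry and 59.2 ± 11.01 in HFD livers (SD, n = 4). The neighbour 260 bp before it had 89.1 ± 5.76 and 89.3 ± 0.849, the one 375 bp before it had 65.8 ± 11.9 and 52.8 ± 17.2, and the one 71 bp after it had 41.8 ± 22.9 and 35.6 ± 23.8. A further neighbour only 20 bp before it, with 7 MspI tags, had 17.5 ± 21.8 and 27.8 ± 18.7. The m-score was thus lower at the closest sites and high 260 bp away.

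The next was at chromosome 17, position 28401705, with 24 MspI tags. Its neighbour 34 bp after it had 7.73 ± 15.5 in lingonberry and 22.8 ± 7.40 in HFD livers, and the neighbour 450 bp after it was at 0 in every liver. On the other side, the neighbours 403 and 430 bp before it had 87.1 ± 4.79 and 72.4 ± 7.51 in lingonberry and 86.7 ± 1.597 and 75.4 ± 5.06 in HFD livers (SD, n = 4). The high m-scores at this site thus lay on one side, and low to intermediate ones on the other. At chromosome 13, position 112848055, with 37 MspI tags, the neighbour 444 bp before it had 0 in lingonberry and 9.98 ± 19.96 in HFD livers, and that 430 bp after it had 84.7 ± 7.03 and 89.8 ± 5.04. The 3 neighbours between them were intermediate, with means over all livers of 41.6 at 284 bp before, 23.4 at 111 bp after and 43.8 at 172 bp after, so no sharp border was seen.

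At the other extreme, the 3 sites with most MspI tags among those whose neighbours were all at 0 lay at chromosome 5, position 142911106 (67 MspI tags), chromosome 12, position 5058815 (47) and chromosome 4, position 128281816 (44). The site on chromosome 12 lies in the array described above. In each case 3 neighbours with 10 to under 20 MspI tags had no HpaII tag in any liver.

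Over the 19 autosomes the share of eligible sites that were zero-tag sites ran from 4.37% on chromosome 11 to 5.79% on chromosome 10, with a median of 5.00153%. On the X chromosome, outside the rule, 523 of 7005 sites with 20 or more MspI tags were at 0 in every liver (7.47%, exact 95% interval 6.86% to 8.11%), and on the Y chromosome 1 of 103. In 2295 bins of 1 Mb with at least 50 eligible sites the share had a median of 4.73% (quartiles 3.27% and 6.36%) and ran from 0 to 22.4%. In 81 bins it was 10% or more, and 41 bins had none. The share of isolated sites in a bin and the mean m-score of its comparison sites had Pearson correlations of -0.083 and -0.051 with the share over bins, which share the same libraries.

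The bin with the highest share was chromosome 10 from 37000001 to 38000000, with 15 zero-tag sites of 67 (22.4%, exact 95% interval 13.1% to 34.2%). Its comparison sites had a mean m-score of 16.1, and 65.7% of its eligible sites were isolated. Chromosome 13 from 90000001 to 91000000 held 13 of 77 (16.9%), and chromosome 12 from 36000001 to 37000000 held 24 of 146 (16.4%). These were picked as the highest of 2295, so their intervals understate the uncertainty. The 3 bins with most MspI tags among the 41 with none held 271 eligible sites on chromosome 9 from 34000001 to 35000000, 260 on chromosome 2 from 147000001 to 148000000 and 115 on chromosome 17 from 39000001 to 40000000. A count of 0 allows a share of up to 1.11%, 1.15% and 2.61% there. The bin on chromosome 17 was of another kind, since its eligible sites had a median of 878 MspI tags, against 30 and 33 in the other two.

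Whether sites at 0 in some livers were also at 0 in others was read by leaving livers out of the choice. For each liver, sites at 0 in the other 7 were taken. Between 83.0% and 91.7% of them were also at 0 in the liver left out, against 17.5% to 29.01% of the remaining eligible sites in the same liver. Their mean m-score there was 1.03 to 1.503, against 31.6 to 33.9. Of the 33407 sites at 0 in exactly 7 livers, 77.8% had a total that rounded to at most 1 tag in the remaining liver. The remaining liver was lingonberry sample 1 to 4 for 5989, 4329, 2630 and 5343 of these sites and HFD sample 1 to 4 for 3550, 3744, 3901 and 3921. The 3 deepest libraries had the highest numbers, but the order did not follow depth among the others, since the shallowest, HFD sample 3, had more than HFD samples 1 and 2.

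Sites chosen in the livers of a diet were read in the other diet in the same way, again with no test. The 52626 eligible sites at 0 in all 4 lingonberry livers were at 0 in 84.6%, 83.7%, 83.4% and 83.4% of cases in the 4 HFD livers, against 21.2% to 22.1% of the remaining sites. The 59627 sites at 0 in all 4 HFD livers were at 0 in 75.9%, 80.8%, 86.9% and 78.0% of cases in lingonberry samples 1 to 4, against 15.2% to 26.3%. The zero-tag sites were 55.5% of the first set and 49.03% of the second. In these livers the m-score of the sites chosen in the other diet was 1.66 to 2.23 on average, so those that had tags had few.

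The share of eligible sites at 0 in a liver is set in part by depth, which differed between the diets. The share at 0 was 21.4%, 25.1%, 32.4% and 23.4% in lingonberry samples 1 to 4, whose depths were 16076961, 9974503, 6121989 and 10215066 tags. It was 27.7%, 26.9%, 26.9% and 26.7% in the HFD samples, with 7036766, 6530093, 5877080 and 7428108. The means were 25.6% ± 4.79 and 27.1% ± 0.415 (SD, n = 4), a difference of -1.47 percentage points (exact permutation test, two-sided p = 0.571). With every library thinned to 5877080 tags, the shares became 33.6%, 32.6%, 33.0% and 31.4% with lingonberries and 30.3%, 28.5%, 26.9% and 30.02% without. The means were then 32.6% ± 0.889 and 28.9% ± 1.56, a difference of 3.73 in the opposite direction, with all 4 lingonberry livers above all 4 HFD livers (exact p = 0.0286, the smallest possible). Sites at 0 in all 4 livers of a diet likewise numbered 52626 with lingonberries and 59627 without as deposited, and 79425 and 65747 after thinning.

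Lingonberry sample 3 was the highest in this measure as deposited. It was close in depth to the HFD libraries, and 32.4% of its eligible sites were at 0, against 26.7% to 27.7% in HFD livers. Without it the difference as deposited was -3.74 (exact p = 0.0286), and after thinning it was 3.62 (exact p = 0.0286), so the direction turned with thinning whether or not this library was included.

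**Figure D5:**
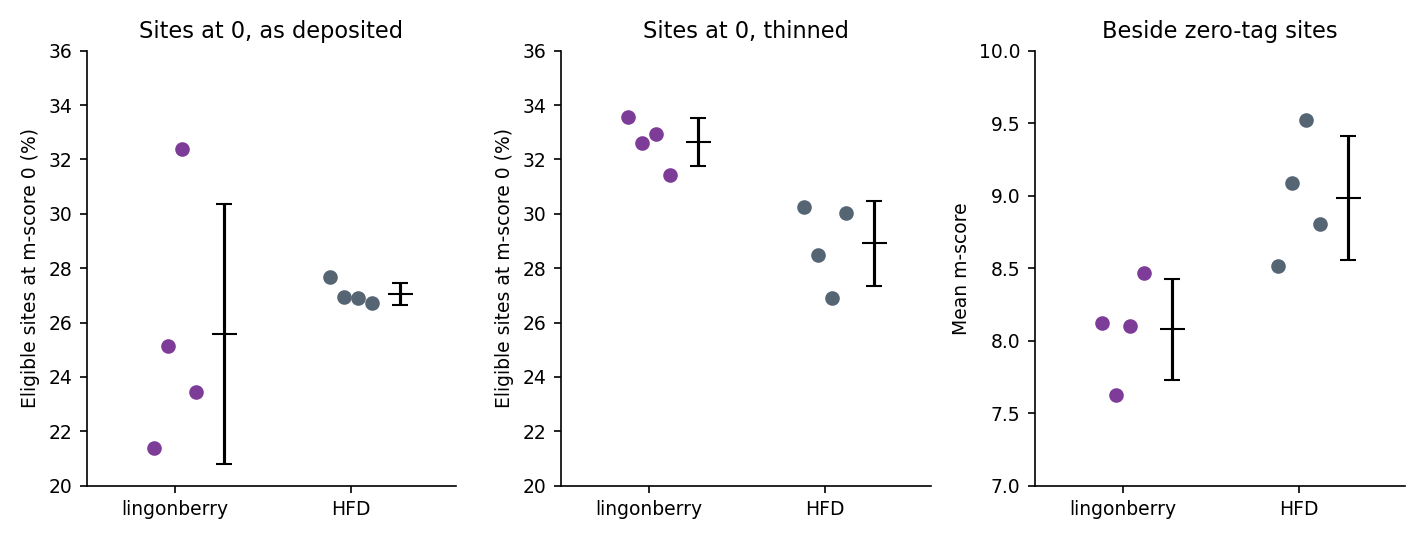
Values per liver (points) with mean and SD beside them, for the share of eligible sites at m-score 0 as deposited (left, %), after thinning to 1 depth (middle, %) and the mean m-score of sites within 500 bp of a zero-tag site (right); the y axes do not start at 0. After thinning all lingonberry livers lie above all HFD livers, and beside zero-tag sites all lie below, from 7.62 to 8.46 against 8.52 to 9.52.

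The m-score beside the zero-tag sites was lower with lingonberries. It was 8.08 ± 0.346 with and 8.98 ± 0.427 without them (SD, n = 4), a difference of -0.905 ± 0.275 (SE), and all 4 lingonberry livers lay below all 4 HFD livers, if only by the step from 8.46 to 8.52 (exact permutation test, two-sided p = 0.0286). Beside comparison sites the values were 39.6 ± 1.18 and 40.3 ± 0.298, a difference of -0.666 ± 0.609 (SE, exact p = 0.314). On the m-score the 2 differences were not shown to differ, as the difference between them was -0.239 ± 0.454 (SE, exact p = 0.714). Sites whose nearest eligible site was a comparison site beyond 5000 bp had 14.5 ± 0.390 with and 17.2 ± 1.08 without lingonberries. There too all 4 lingonberry livers lay below all 4 HFD livers. Within 50 bp of a comparison site the values were 58.4 ± 1.10 and 57.0 ± 1.03. Within 50 bp of a zero-tag site they were 3.77 ± 0.454 and 3.96 ± 0.136, and the livers overlapped. A lower m-score with lingonberries was thus not particular to sites beside zero-tag sites. In HpaII tags per 1000000, the sites beside zero-tag sites held 666 ± 50.4 with and 775 ± 60.8 without lingonberries (SD, n = 4), a log2 difference of -0.22 ± 0.078 (SE, exact p = 0.0571). Beside comparison sites they were 87474 ± 3251 and 85329 ± 1591, and the log2 difference beside zero-tag sites minus that beside comparison sites was -0.26 ± 0.087 (SE, exact p = 0.0571), which did not pass either. The call on the m-score did not survive leaving out lingonberry sample 1, 2 or 3 (differences of -0.963, -0.776 and -0.943, exact p = 0.0571 each) or HFD sample 2 or 3 (-0.875 and -0.719, exact p = 0.0571 and 0.0857), and it was lost with neighbours within 200 bp (-0.472, exact p = 0.0857) or 1000 bp (-1.22, exact p = 0.0571).

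No single site near a zero-tag site passed the test between diets. The zero-tag sites themselves are constant and have no test. Of the 560603 comparison sites, 0 passed (0%, limma, adjusted p below 0.05; smallest adjusted p 0.907), and 28200 (5.03%) had an unadjusted p below 0.05. Of the 12862 comparison sites within 500 bp of a zero-tag site, 0 passed and 398 (3.09%) had an unadjusted p below 0.05, with 260 of them lower with lingonberries (2.02%, against 3.14% of all sites tested). On log2 HpaII tags per 1000000, limma likewise called 0 of the 12862. An unadjusted p below 0.05 was found at 495 of them (3.85%), against 30513 (5.44%) of all sites tested. Comparison sites near zero-tag sites were lower with lingonberries in 55.5% of cases, with a median difference of -0.64, and all comparison sites in 54.5%, with a median of -0.67. Among sites with a mean of 5 or more HpaII tags, these shares were 59.0% (of 842 sites) and 48.4%, with medians of -1.70 and 0.216. There too limma called 0, and unadjusted p was below 0.05 at 6.18% and 5.67%. The order of the shares varied with the setting, with 51.3% and 52.7% without HFD sample 3.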

How the data were processed

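DNA of 8 mouse liver samples was profiled by HELP-tagging (HpaII digestion, adapter ligation, EcoP15I, in vitro transcription, reverse transcription and PCR, per the labels' protocols). Build mm9 and CASAVA are named in the submitters' processing notes. The sources used here name no aligner and no origin of the MspI reference. Per the file headers, each deposited file lists an m-score, a score from 0 to 100, and conf, read as a signal with no value below 0. Their meaning, angle and length of the tag vector, was worked out from the values. MspI tags were the cosine component over its commonest value at m-score 0, as the median of 8 files, and were set to whole numbers within 0.02. HpaII tags were the sine component, whole at 96.1% to 97.0% of sites above 0. PCR tags carry no molecular identifiers, so intervals and limits cover counting error only.

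Neighbours were listed sites within 500 bp. Sample means were compared with exact permutation tests (70 assignments) or sign flips (256 patterns), two-sided, and sites with limma 3.58.1 (R 4.3.3, trend, Benjamini-Hochberg). Scripts were tested on simulated data. Thinning drew tags at random to 5877080 per library. Named sites were the 6 zero-tag sites with most whole MspI tags, the 3 longest runs, the 3 highest and 3 lowest bins, and the 3 highest and 3 lowest mean neighbour m-scores. Zero-tag sites, comparisons and lists were chosen with earlier results of these data known. Gene lists and sequence were not used, as no mm9 annotation was used here.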

Additional observations from a re-analysis of the deposited data

Results flagged for a closer look

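In none of the 50 sets of 4 values tested did the gap from the highest or lowest library to the next exceed the limit set for 4 samples, and chance alone would give about 2.5 such sets. This includes the share of sites at 0 in lingonberry sample 3, 32.4% against 21.4% to 25.1% in the other lingonberry samples.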

How the results depend on the processing

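No paired analysis was possible because the labels give no replicate numbers shared between the diets, and the sample numbers used here follow accession order only. The number of zero-tag sites was 2365 with a minimum of 50 MspI tags, 61871 with 10 and 56122 if at most 1 HpaII tag over all livers was allowed, and 31863 to 35222 when chosen on 7 livers. The isolated minus clustered share was 1.89 percentage points with a minimum of 50, 6.46 with 10, 5.05 with a density window of 200 bp and 4.98 to 5.55 without 1 sample. The diet difference in the share of sites at 0 was 3.73 after thinning, 3.62 after thinning without lingonberry sample 3, and -3.74 to -0.064 without 1 sample. The call on the difference beside zero-tag sites, but not its direction, was lost with neighbours within 200 bp (-0.472), within 1000 bp (-1.22), with 5 to under 20 MspI tags (-0.871) and on log2 tags per 1000000 (-0.22), and ran from -1.12 to -0.719 without 1 sample. The diet difference beside zero-tag minus beside comparison sites was -0.26 on log2 tags per 1000000, 0.039 after thinning and 0.457 at sites with 1 to 4 neighbours, and from -0.513 to 0.088 without 1 sample, none past the threshold. The gap between sites beside zero-tag and beside comparison sites kept direction and call in all 16 alternatives. In each of them the zero-tag sites were chosen from the livers tested. In all 14 alternatives for limma it called 0 sites beside zero-tag sites. The alternatives by thinning without lingonberry sample 3, on log2 tags beside zero-tag sites and by density within the diet comparison were chosen after the data were seen. Depth limits a single liver more than the 8 together.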
